A study of Mus musculus with 22 samples.

Results

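The normal retinal pigment epithelium (RPE) was compared with the normal neural retina in bulk RNA-Seq of 30-day-old WT mice of the C57BL/6J strain. The comparison took every bulk library that the labels give as WT at P30, which were 4 RPE and 4 retina libraries among the 16 bulk libraries and the 22 samples of the series. The remaining bulk libraries came from AdipoR1-/- mice, lacking the receptor ADIPOR1 for the hormone adiponectin, and entered only an alternative fit of all 16 bulk libraries. No deletion, transgene or treatment was shared by the 2 groups. Retinas of both eyes went into one RNA stabilizer and posterior eyecups into another, from which RPE cells were shaken loose and pelleted after the choroid and sclera had been lifted away. Tissue and stabilizer cannot be told apart in this design. The study counts mice as its replicates, but the labels only number the libraries and do not say whether libraries of the same number in both tissues came from the same mouse.

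The RPE is a single layer of pigmented cells between the photoreceptors and the choroidal blood supply. It regenerates the chromophore of the visual pigments, engulfs the tips that photoreceptors shed every day, and moves water, ions, glucose and lactate between blood and retina. The neural retina holds rods and cones, the bipolar, horizontal, amacrine and ganglion cells that carry their signals, and Müller glia. Many enzymes and transporters have one paralog in epithelia and another in neurons. A comparison of the 2 tissues shows in which of them each paralog is higher. It does not show which paralog a tissue uses. In the mean of the RPE libraries, Snap25 (19.8 CPM per kb of exon) was above Snap23 (11.3), although Snap23 was higher in RPE than in retina. That order came from RPE replicates 2 and 3, with 297 and 189 CPM of Snap25. In replicates 1 and 4 Snap25 was below Snap23 (22.8 and 30.4 against 53.6 and 51.1 CPM).

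Values are CPM, a gene's counts as a share of all counts in its library after TMM scaling between libraries. Library totals were 20133143 to 38409496 counts in WT RPE and 27443445 to 30443894 in WT retina. Of 53801 identifiers, 20009 genes had enough counts to be tested. By the quasi-likelihood test of edgeR, 13244 genes (66.2% of those tested) were DEGs, defined by a Benjamini-Hochberg adjusted p under 0.05 together with a difference of 1.5-fold or more. Of these, 6816 (34.1%) were higher in RPE and 6428 (32.1%) lower. At least 4-fold, 5256 genes (26.3%) differed, of which 3135 (15.7% of those tested) were higher in RPE and 2121 (10.6%) lower. In 7981 genes (39.9%) every RPE library was above every retina library, and in 7889 (39.4%) every one was below. Because most genes differed, the counts of each group of genes are read against these shares. Over all genes tested, the log2 fold change had a median of 0.003 with TMM, -0.26 with scaling by library totals alone and -0.11 with upper quartile scaling.

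Retina libraries were nearly alike and RPE libraries were not. Pearson's r of log2 CPM over the genes tested was 0.995 to 0.997 among retina libraries, 0.945 to 0.985 among RPE libraries and 0.686 to 0.843 between tissues. The biological coefficient of variation was 0.0805 in retina and 0.366 in RPE. Rod RNA differed among the RPE libraries. The median gene of the rod list stood at 2.39% of its mean in retina in RPE replicate 1, at 31.7% in replicate 2, at 33.9% in replicate 3 and at 4.45% in replicate 4. RPE replicates 2 and 3 therefore stood apart, and the lists of retinal genes below are given with and without them. Without both, 7186 genes (34.6%) were higher in RPE and 7320 (35.2%) lower, and at least 4-fold 3579 (17.2%) were higher and 3386 (16.3%) lower. RPE RNA in the retina was scarce, with Rpe65 at 1.79 to 8.52 CPM against 3004 to 5251 CPM in RPE. In both tissues replicates 1 and 2 had Ddx3y of the Y chromosome at 57.3 to 74.5 CPM, and replicates 3 and 4 had at most 0.168 CPM of it. In bulk tissue, fewer cells of a type and less RNA per cell cannot be told apart.

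**Figure D1:**
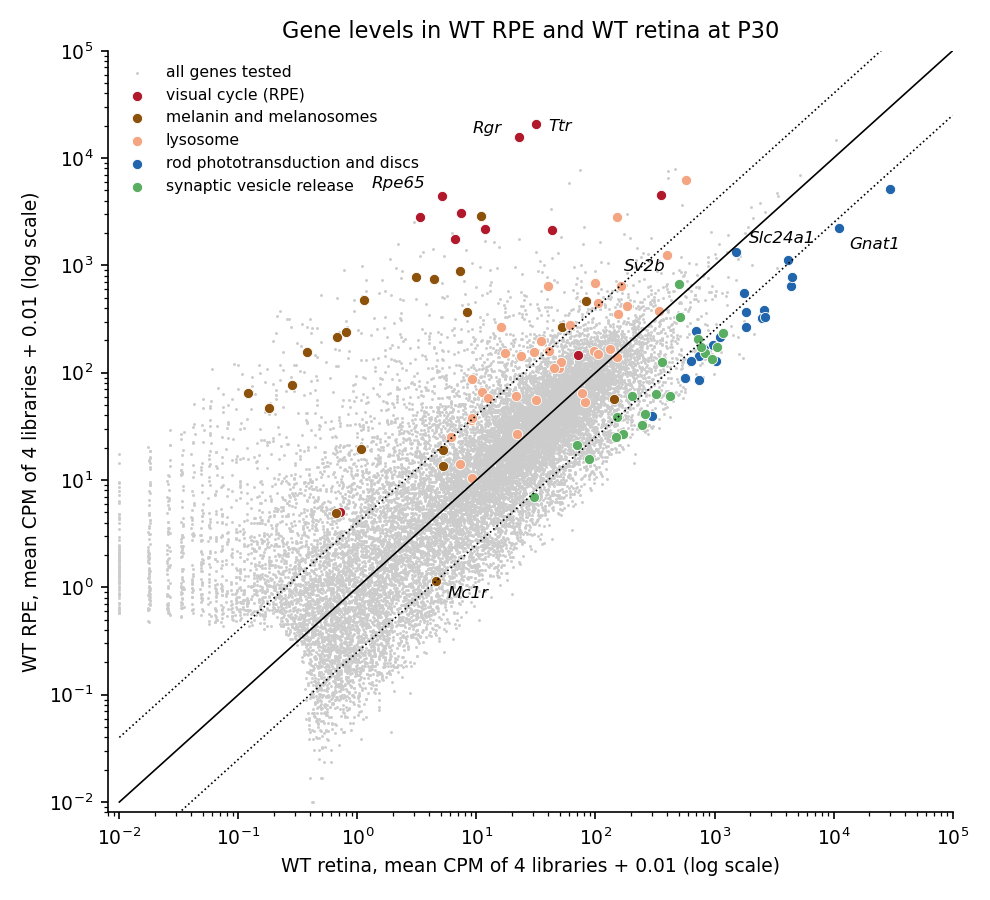
Mean CPM of each tested gene in WT retina (horizontal, log scale) and WT RPE (vertical, log scale), 4 libraries each, with 0.01 added. The solid line marks equal levels and the dotted lines 4-fold differences. Visual cycle and most melanin genes lie far above the upper line. Most rod and synaptic genes lie only a little below the lower one. Others of them lie between the lines, with Slc24a1 and Sv2b near the solid line.

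The RPE genes of the visual cycle, which turn all-trans-retinol back into 11-cis-retinal and carry retinoids between cells, were all higher in RPE. All 11 members were tested and called, and the median log2 fold change was 8.09, and 10 of them were at least 4-fold higher. Rpe65, the isomerohydrolase (ENSMUSG00000028174, chr3:159599175-159625321 on GRCm38), had 4912, 3004, 5251 and 4620 CPM in RPE replicates 1 to 4 and 1.79, 4.52, 5.78 and 8.52 CPM in the retina libraries. Its log2 fold change was 9.75 (SE 0.60), with an adjusted p of 2.7e-06 in edgeR's test. Lrat, which esterifies retinol, differed by 9.71, and Rdh5, which oxidizes 11-cis-retinol, by 8.69. Ttr, the carrier of thyroxine and of the retinol-binding protein, was the most abundant RPE gene per length (17364 CPM per kb of exon in RPE and 26.7 in retina). Rgr, the opsin of the RPE and Müller glia, had 11549 to 17344 CPM in RPE and 8.93 to 34.1 CPM in retina. Replicate 2 was the lowest RPE library for 10 of the 11 members, all but Rbp4, and the tissues did not overlap in any of them.

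Retinol dehydrogenases split between the tissues. Of the 4 genes on the photoreceptor side of the visual cycle, 2 were lower in RPE and 2 were not called, and the median log2 fold change was -2.35, and -5.14 without RPE replicates 2 and 3. Rdh5 and Rdh10 (log2 fold change 5.65) belonged to RPE. Rdh8 and Rdh12, which reduce all-trans-retinal in photoreceptors, were lower in RPE, with log2 fold changes of -3.02 and -2.86 in the 8 libraries and -6.21 and -5.38 without RPE replicates 2 and 3. Rdh8 had 1.31, 26.6, 22.7 and 1.73 CPM in RPE replicates 1 to 4 and 105 to 111 CPM in retina. Rdh11, a broadly used enzyme, was 1.04 higher on the log2 scale in RPE.

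Pigment genes followed the same direction with 2 exceptions. Of 20 genes of melanin synthesis and melanosomes, 18 were higher in RPE and 2 lower, and their median log2 fold change was 7.16. Tyr, the enzyme of the first step, had 331 to 552 CPM in RPE and 0.388 to 1.96 CPM in retina (log2 fold change 8.75). Tyrp1, the enzyme of a later step, had 781, 600, 700 and 1025 CPM in RPE and 1.20 to 4.64 CPM in retina. Both were far outside the range of the other tissue in every library. Mlana and Dct, markers of pigment cells, were highest in RPE replicate 4 (246 and 3738 CPM) and lowest in replicate 3 (103 and 2274 CPM). The members that went the other way were Mc1r, the melanocortin receptor of melanocytes (0.671 to 1.64 CPM in RPE, 4.08 to 5.41 in retina), and Lyst, a regulator of lysosome-related organelles (log2 fold change -1.34).

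Promoter sequence was examined for the pigment and rod genes because most members of each list moved together. Windows of 250 bases before to 50 after the start site were taken from RefSeq on GRCm38.p6, and 12833 of the genes tested had 1 or more. CATGTG on either strand, the E-box read by the MITF family, was in 8 of 17 windows of the pigment list (47.1%). Mc1r, which was lower in RPE, was among the genes with a match. CATGTG was in 12.0% of windows of genes at least 4-fold higher in RPE. It was in 10.2% of windows of genes at least 4-fold lower and in 9.22% of all 16371 windows. CACGTG was in 2 of the 17 (11.8%), against 9.08% of all windows. In the visual cycle list, which holds Rpe65, CATGTG was in 3 of 13 windows (23.1%). These are matches of letters and not tested sites. The 250 bases before the start site of 3 RPE genes with a match are printed here 5′ to 3′ on the gene's strand with CATGTG or its complement in capitals. They lie at chr7:87493513-87493762 (Tyr, minus strand), chr4:80833963-80834212 (Tyrp1, plus strand) and chr3:159598931-159599180 (Rpe65, plus strand).
Tyr: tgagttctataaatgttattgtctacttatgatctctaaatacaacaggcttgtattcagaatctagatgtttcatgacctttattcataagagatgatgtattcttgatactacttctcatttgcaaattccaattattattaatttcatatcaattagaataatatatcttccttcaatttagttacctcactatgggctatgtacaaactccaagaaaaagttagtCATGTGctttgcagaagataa
Tyrp1: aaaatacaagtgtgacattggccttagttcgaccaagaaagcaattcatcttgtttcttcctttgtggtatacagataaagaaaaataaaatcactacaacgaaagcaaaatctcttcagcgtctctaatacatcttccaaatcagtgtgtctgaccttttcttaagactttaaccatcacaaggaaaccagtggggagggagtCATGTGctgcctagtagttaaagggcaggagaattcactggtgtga
Rpe65: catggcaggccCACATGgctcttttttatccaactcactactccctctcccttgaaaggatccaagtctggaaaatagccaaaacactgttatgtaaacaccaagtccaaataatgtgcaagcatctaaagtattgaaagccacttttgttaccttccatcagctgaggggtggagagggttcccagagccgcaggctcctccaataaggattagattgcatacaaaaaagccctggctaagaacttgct
The match began 21 bases before the start site in Tyr, 46 in Tyrp1 and 239 in Rpe65.

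Transcription factors of the RPE were less exclusive than its enzymes. Of 7 listed, 6 were tested, 5 were higher in RPE and 1 was lower, and the median log2 fold change was 2.68. Mitf, the master regulator of pigment cells, had 76.4 to 110 CPM in RPE and 5.88 to 7.80 CPM in retina. Otx2, needed by RPE and photoreceptors alike, had 525 to 695 CPM in RPE and 199 to 212 in retina, and so was 1.66 higher on the log2 scale. Its relative Crx, the photoreceptor factor, had 18.6, 305, 265 and 33.6 CPM in RPE and 1081 to 1190 CPM in retina. Within RPE, Crx was highest in the 2 libraries with the most rod RNA. Pax6 was lower in RPE (log2 fold change -0.96), and Tfec had too few counts to be tested. Of the MITF relatives, Tfeb was higher in RPE (2.06), whereas Tfe3 differed by 0.50, under the fold minimum.

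Transporters that face the photoreceptors and the blood were mostly higher in RPE. Of 20 genes of ion, water and acid-base transport, 16 were higher in RPE, 2 lower and 2 not called, and the median log2 fold change was 2.73. Slc16a8, the basolateral lactate transporter MCT3 (ENSMUSG00000032988, chr15:79251014-79254761 on GRCm38), had 1783, 1171, 1658 and 1773 CPM in RPE and 1.02 to 3.05 CPM in retina. Kcnj13, the apical potassium channel Kir7.1, had 463 to 694 CPM in RPE and 0.209 to 1.71 in retina. RPE was 731-fold above retina for Slc16a8 and 491-fold above it for Kcnj13. Carbonic anhydrases changed places, since Car12 (log2 fold change 9.25) and Car14 (4.34) were higher in RPE and Car2 was lower (-2.62, and -4.57 without RPE replicates 2 and 3). The beta subunits of the sodium pump did so as well, with Atp1b1 higher in RPE (1.42) and Atp1b2 lower (-0.84, and -1.26 without RPE replicates 2 and 3). Best1, whose bestrophin is a usual marker of RPE, was higher (1.15) but had only 0.788 to 1.31 CPM there and 0.397 to 0.557 in retina. Slc6a6, the taurine transporter, had 1114 to 1607 CPM in RPE and 1244 to 1325 in retina, and its log2 difference was 0.06 with overlapping ranges.

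**Figure D2:**
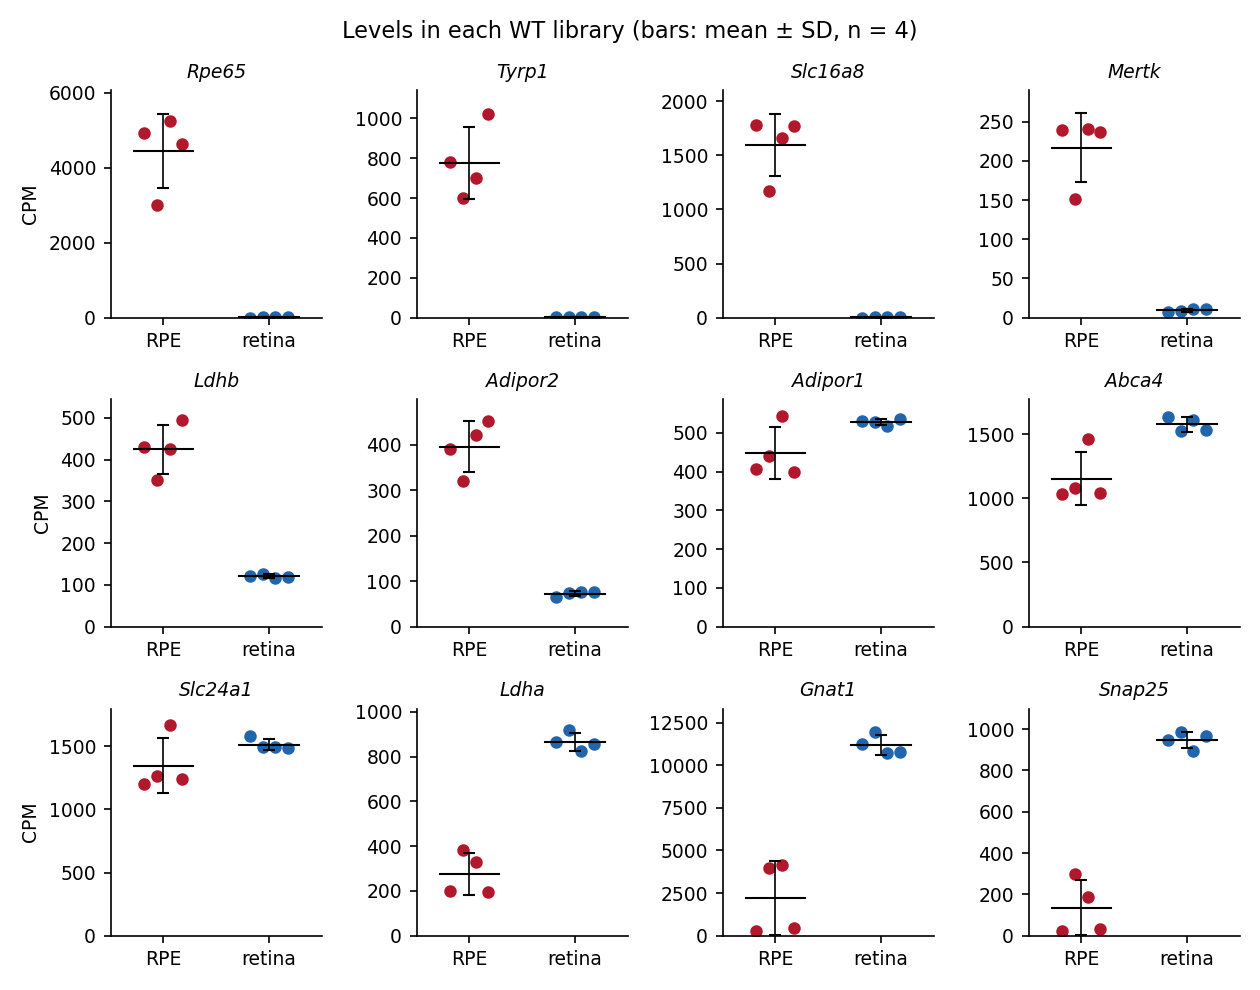
CPM (vertical, linear from 0) of 12 genes in each of the 4 WT RPE (red) and 4 WT retina libraries (blue), with the mean and the SD. Rpe65, Tyrp1, Slc16a8 and Mertk lie near 0 in retina, the ranges of Adipor1 and of Slc24a1 overlap between tissues, every RPE library of Abca4 lies below every retina library, and Gnat1 and Snap25 fall into a low and a high pair of RPE libraries.

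Epithelial junction and polarity genes were higher in RPE in 22 of 27 cases, lower in 3 and not called in 2. The median log2 fold change was 3.42. The list's median gene varied among RPE replicates 1 to 4, at 1830%, 874%, 499% and 925% of its retina mean. Krt8, a keratin of simple epithelia, had 227 to 305 CPM in RPE and 0.179 to 0.496 in retina. Cdh3, P-cadherin, had 199 to 294 CPM in RPE and 0.269 to 0.933 in retina, and was the most abundant of 3 classical cadherins there per length (54.2 CPM per kb). Cdh1, E-cadherin, was also higher in RPE, but its level varied with replicate, at 74.5, 24.9, 14.3 and 23.7 CPM. The summed genes of the corneal and conjunctival epithelium had the same order as Cdh1, at 5284, 1853, 672 and 1825 CPM. Their part in the Cdh1 value and in the list's median was not tested. Cdh2, N-cadherin, was lower in RPE (log2 fold change -1.02), as were Crb1 (-3.03) and Crb2 (-0.82), polarity proteins of the photoreceptor and Müller glia junctions, which were at -5.46 and -1.09 without RPE replicates 2 and 3. Ezr, the ezrin of apical microvilli, was 6.85 higher and its partner Slc9a3r1 5.65 higher. Tjp1, the ZO-1 protein of tight junctions, was under the fold minimum (-0.43).

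Genes of outer segment phagocytosis were mostly higher in RPE. Of 19, 12 were higher in RPE, 3 lower and 4 not called. Mertk, the receptor that triggers engulfment, had 239, 152, 241 and 236 CPM in RPE and 6.81 to 11.3 in retina (log2 fold change 4.53), and its kin Tyro3 and Axl were 2.49 and 1.93 higher. The integrin subunits Itgav and Itgb5, which bind shed tips, were 4.60 and 2.60 higher. Mfge8, an integrin ligand, was lower in RPE (-0.97), and so were Tub (-2.94) and Tulp1 (-2.46), tubby proteins of photoreceptors, which were at -5.13 and -4.98 without RPE replicates 2 and 3. The ligand Gas6 was at 225 to 359 CPM in RPE and 186 to 234 in retina, under the fold minimum.

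Lysosomal genes were higher in RPE in 29 of 37 members tested, lower in 1 and not called in 7, and the median log2 fold change was 1.96. Ctsd, the aspartic protease cathepsin D, had 2326 to 3219 CPM in RPE and 145 to 157 in retina (4.22). Psap, the precursor of saposins, was 3.45 higher and Npc2, which moves cholesterol out of lysosomes, 4.01 higher. Npc1, its partner in the lysosomal membrane, was lower (-0.62), and without RPE replicate 1 or without RPE replicate 4 it fell under the fold minimum (-0.56 and -0.55). The proton pump subunits Atp6v1a (0.15) and Atp6v0d1 (0.33), and Mcoln1 (-0.25), were not called. CACGTG, the core of the motif read by TFEB at lysosomal genes, was in 10 of 33 windows of this list (30.3%), against 9.08% of all windows and 7.28% of those of genes at least 4-fold higher in RPE.

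Secreted proteins of the RPE included its matrix and its growth factors. Of 24 genes of Bruch's membrane, the sheet beneath the RPE, 22 were higher in RPE, 1 lower and 1 not called, and the median log2 fold change was 3.66. Timp3, an inhibitor of metalloproteinases, had 5467 to 9037 CPM in RPE and 56.1 to 84.7 in retina. Col8a2, a short-chain collagen, was 9.75 higher. Among collagen IV chains Col4a3 and Col4a4 (5.56 and 5.50) differed more than Col4a1 and Col4a2 (1.12 and 1.43). Of 27 growth factors and inhibitors, 20 were higher in RPE, 4 lower and 3 not called. Sfrp5, a Wnt inhibitor, had 65.1 to 120 CPM in RPE and 0.120 to 0.156 in retina (9.41). Bmp4 was 7.87 higher, Igfbp5 5.71, Serpinf1, which encodes PEDF, 4.43, and Vegfa, the factor that maintains the choriocapillaris, 2.26. The retina held more of Fgf9 (-2.69) and of the Wnt modulator Frzb (-2.29), at -5.12 and -3.11 without RPE replicates 2 and 3.

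Genes of fuel use split by paralog. Of 23 glycolysis and lactate genes, 13 were lower in RPE, 4 higher and 6 not called, and the median log2 fold change was -0.62. Their summed CPM was nearly equal between tissues, at 93.1%, 104%, 109% and 100% of the retina mean in RPE replicates 1 to 4. The 4 that were higher were Slc2a1, the glucose transporter GLUT1, the lactate transporters Slc16a1 and Slc16a8, and Ldhb. The log2 fold change was 2.36 for Slc16a1, 9.51 for Slc16a8 and 1.81 for Ldhb. On the linear scale, Slc2a1 was 9.18-fold higher. Slc2a1 had 1676 to 1952 CPM in RPE and 180 to 217 in retina. Its neuronal relative Slc2a3 went the other way, at 2.77, 35.5, 21.3 and 4.64 CPM in RPE and 97.8 to 112 in retina. Lactate dehydrogenase subunits crossed over, with the heart-type Ldhb at 271 CPM per kb in RPE and 77.0 in retina, and the muscle-type Ldha at 83.6 and 262. Ldha had 199, 384, 330 and 195 CPM in RPE, higher in the 2 libraries with rod RNA, and 824 to 921 in retina. Hk2, the inducible hexokinase of photoreceptors, was lower in RPE by 2.25 on the log2 scale in all libraries and by 4.45 without RPE replicates 2 and 3. Pfkp (-1.87), Eno2 (-1.83), Pkm (-1.03) and Hk1 (-1.10) were lower too, at -2.46, -3.01, -1.41 and -1.68 without these 2 libraries. Aldoa (0.16) and Pgk1 (-0.03) were not called. Gapdh and Pgk1 have near-identical processed copies in the genome, so their counts are uncertain.

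**Figure D3:**
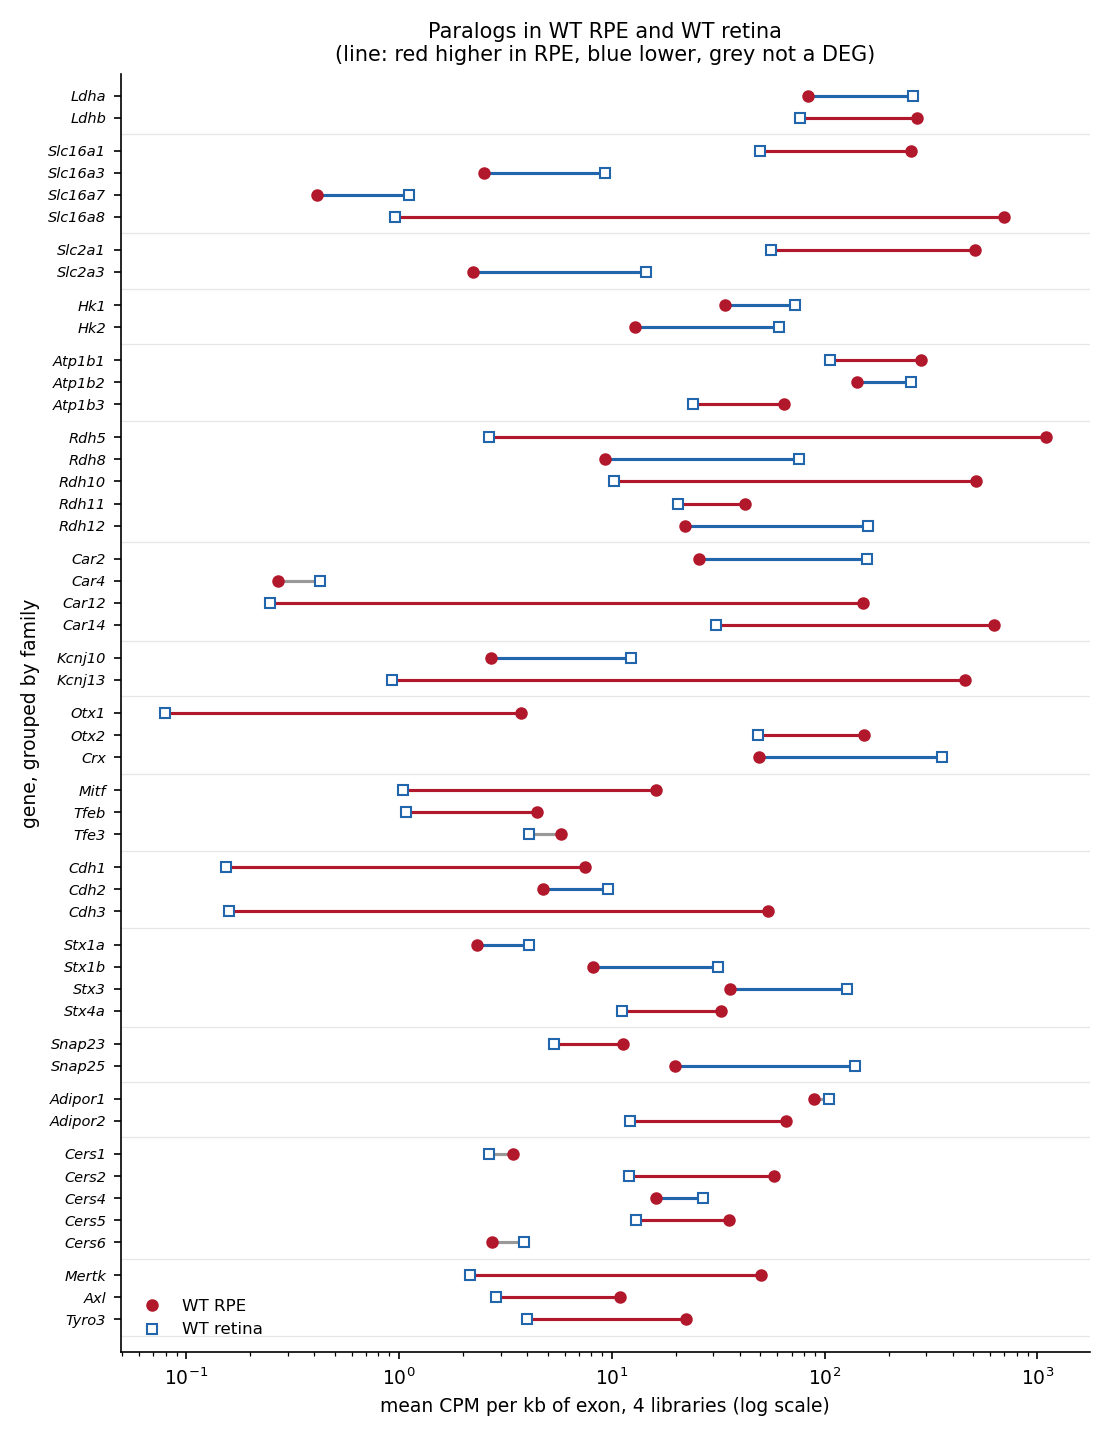
Mean CPM per kb of exon (horizontal, log scale) of paralogs in WT RPE (filled circles) and WT retina (open squares), n = 4 libraries each. Red lines join genes called higher in RPE and blue lines genes called lower. In several families 1 member is higher in RPE and another in retina, as for Ldhb and Ldha, Slc2a1 and Slc2a3, Rdh5 and Rdh12, or Snap23 and Snap25.

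Fatty acid oxidation and ketone genes were higher in RPE in 14 of 23 cases, lower in 1 and not called in 8 (median log2 fold change 1.10). Etfb (3.91), Acaa2 (3.74), Acadl (3.72) and Acads (3.44), which act in or feed electrons from the mitochondrial beta-oxidation spiral, were among those higher. Cpt1a, the entry step, was above every retina library in every RPE library (299 to 367 against 222 to 242 CPM), but its log2 difference of 0.53 was under the fold minimum. Oxct1, which uses ketone bodies, was higher by 0.89. Among genes of lipoprotein and cholesterol transport 7 of 12 were higher, including Apoe (4.02), with 5065 to 7679 CPM in RPE and 365 to 459 in retina, and Soat1 (3.14). Abcg1, a sterol exporter, was lower (-2.03).

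Mitochondrially encoded genes were more even. Of 13, 3 were called higher in RPE and none lower, and the median log2 fold change was 0.49. The called genes were mt-Nd4 (0.68), mt-Nd5 (0.80) and mt-Atp8 (0.89), and none of the 3 was called with scaling by library totals. Leaving out RPE replicate 4 also ended the calls of mt-Nd4 (0.54) and mt-Atp8 (0.68), and mt-Atp8 was lost without any 1 retina library (0.81 to 0.96) or without RPE replicate 3 (0.70). Their share of counts was 3.79% to 5.63% in RPE, highest in replicate 4, and 3.47% to 4.13% in retina.

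The gene that the series deletes, Adipor1, was expressed in both normal tissues. Adipor1 (ENSMUSG00000026457, chr1:134415378-134433351 on GRCm38) had 406, 441, 544 and 400 CPM in WT RPE and 531, 527, 516 and 536 CPM in WT retina. The mean was 448 ± 66.9 CPM in RPE and 528 ± 8.38 in retina (SD, n = 4), and the log2 difference was -0.24 (95% interval -0.49 to 0.02, edgeR adjusted p = 0.078). The ranges overlapped through RPE replicate 3 alone. Without RPE replicates 2 and 3 the difference was -0.42 (edgeR adjusted p = 0.000385), still under the fold minimum. These 2 libraries, replicate 3 among them, were left out after their values were seen. That p-value therefore does not carry the weight of the one from all 8 libraries. Adipor2, the second receptor of adiponectin, was 5.44-fold higher in RPE, with 321 to 451 CPM against 66.0 to 76.5. Per length, Adipor1 was above Adipor2 in retina (105 against 12.2 CPM per kb) and closer to it in RPE (89.1 against 66.2). These are RNA levels and say nothing of protein.

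Adiponectin receptors are known for ceramidase activity, and the genes of ceramide metabolism were therefore listed with them. Of 17 listed, 16 were tested, 10 were higher in RPE, 1 lower and 5 not called. Asah1, the acid ceramidase of lysosomes, had 126, 106, 129 and 139 CPM in RPE and 49.8 to 54.5 in retina (log2 fold change 1.28). Asah2, the neutral ceramidase, was 2.81 higher. The alkaline ceramidases Acer2 (-0.31) and Acer3 (0.46) were not called, and Acer1 was not tested. On the side of synthesis, Degs1, the desaturase of the last step, had 529 to 819 CPM in RPE and 45.0 to 48.8 in retina, and Sptlc1 and Sptlc2 of the first step were 1.55 and 1.49 higher. Ceramide synthases differed by member. Cers2, which makes very long chains, was 2.27 higher and Cers5 1.45 higher in RPE, Cers4 was lower (-0.73), and Cers1 and Cers6 were not called (0.37 and -0.50).

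**Figure D4:**
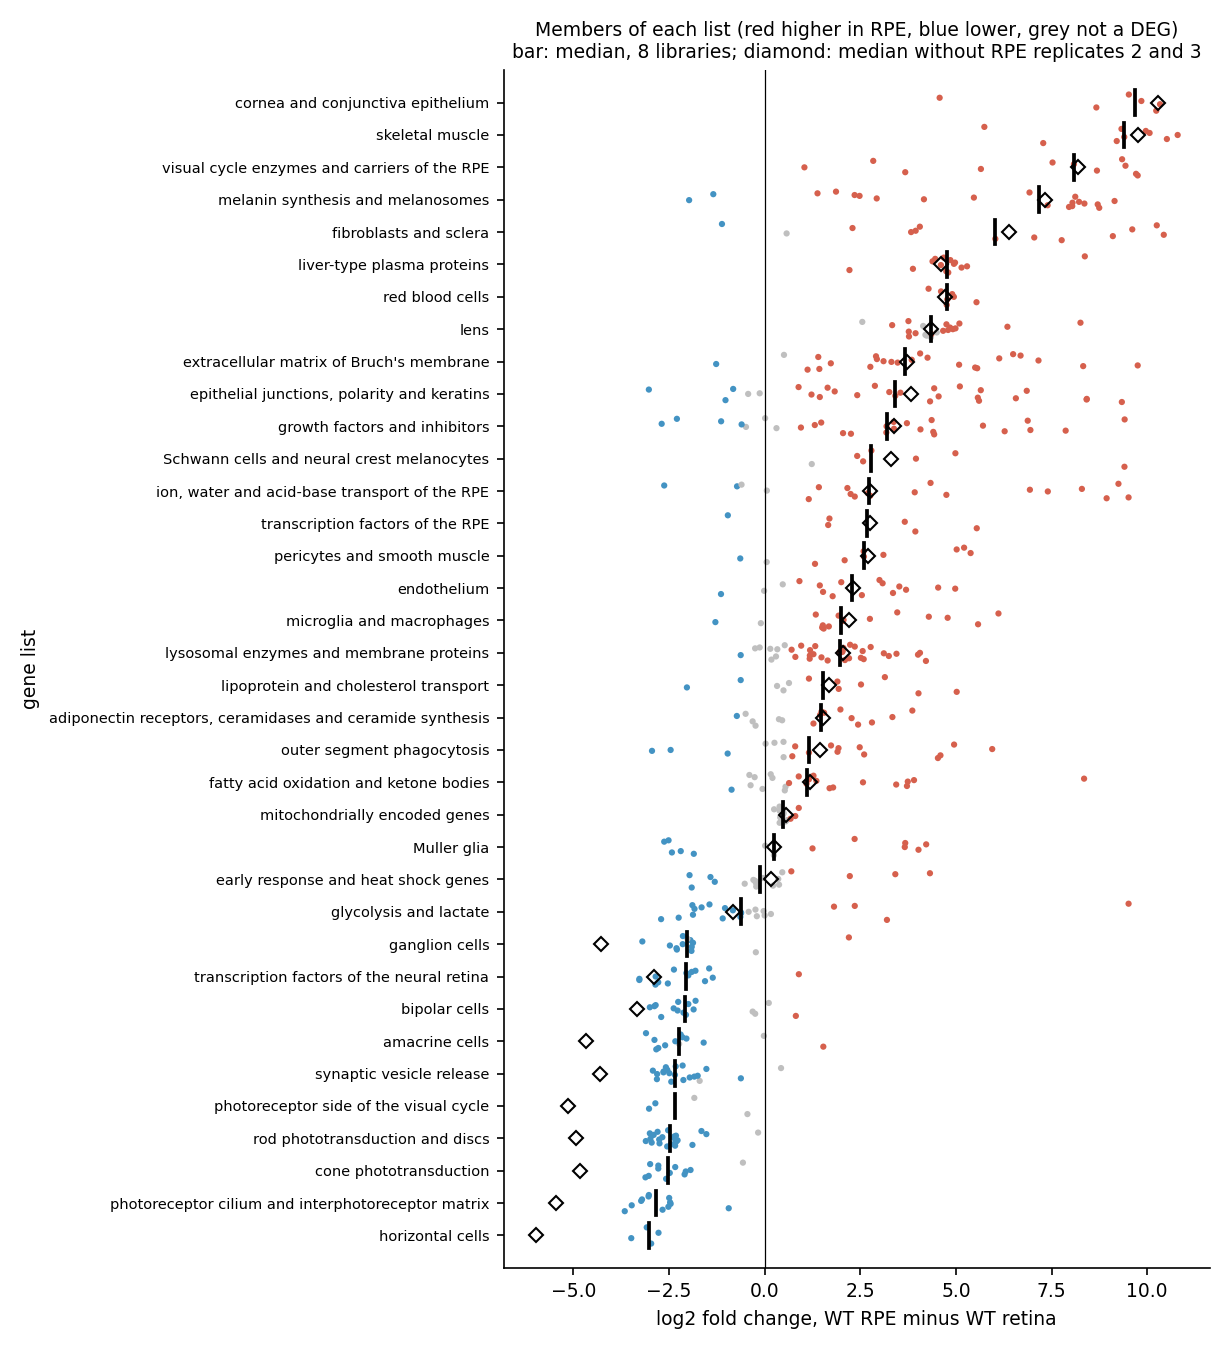
Log2 fold change of WT RPE over WT retina (horizontal) for each tested member of 36 gene lists, ordered by median, with red points higher in RPE, blue lower and grey not called. Bars give the median over all 8 libraries and diamonds the median without RPE replicates 2 and 3. The diamonds lie well to the left of the bars in the retinal lists and closer to them in the others.

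Rod genes were lower in RPE, by an amount that depended on the library. Of 22 genes of rod phototransduction and discs, 21 were called lower and none higher. The median log2 fold change was -2.48 in the 8 libraries and -4.92 without RPE replicates 2 and 3. Gnat1, the rod transducin (ENSMUSG00000034837, chr9:107674474-107679712 on GRCm38), had 259, 3989, 4157 and 431 CPM in RPE and 11242, 11971, 10733 and 10763 CPM in retina. The ranges did not overlap, but replicates 2 and 3 were far above replicates 1 and 4. Its log2 fold change was -2.34 (SE 0.87, edgeR adjusted p = 0.034), and -5.06 without RPE replicates 2 and 3. The call was lost without RPE replicate 4 (adjusted p = 0.056) and without retina replicate 1, 2, 3 or 4 (0.057, 0.061, 0.056 and 0.056). In libraries 1 and 4 the summed rod genes were still 4.72% and 5.85% of the retina. These sums include Slc24a1 and Rgs9, described below, which stayed high there. The median rod gene was at 2.39% and 4.45%.

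**Figure D5:**
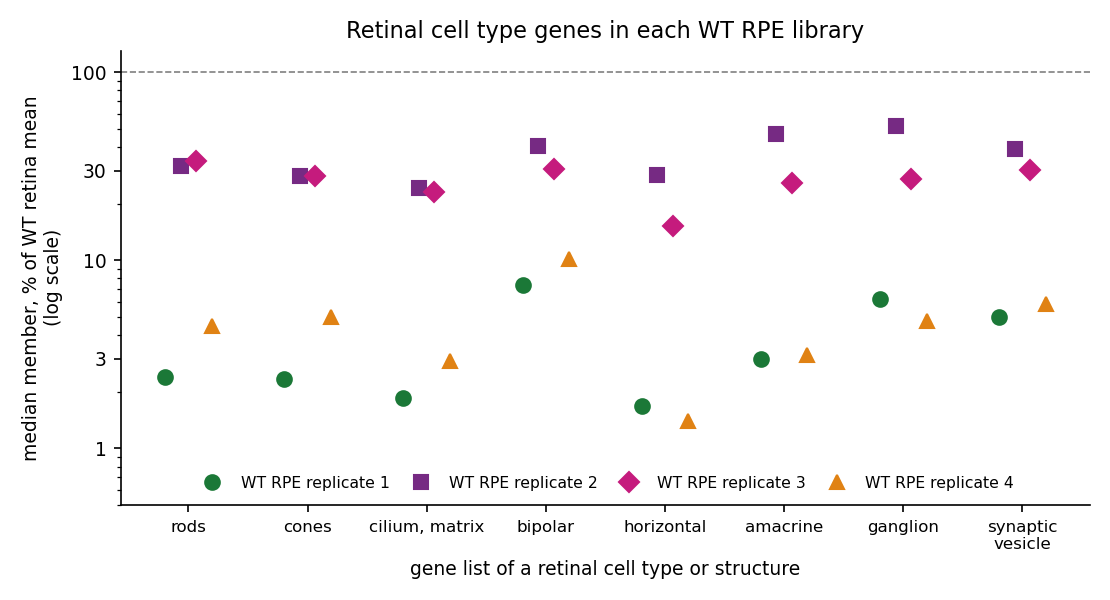
Level of the median gene of 8 retinal lists in each WT RPE library, as a percent of that gene's mean in WT retina (vertical, log scale, dashed line at 100%). Replicates 2 and 3 lie between 15.2% and 51.6% in every list and replicates 1 and 4 between 1.39% and 10.1%.

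Some genes of the photoreceptor lists stayed nearer to their retina level in RPE replicates 1 and 4 than the median rod gene did. They were picked here after their values were seen. Slc24a1, a sodium-calcium exchanger of rod outer segments (ENSMUSG00000034452, chr9:64922861-64951607 on GRCm38), had 1202, 1268, 1670 and 1242 CPM in RPE and 1482 to 1581 in retina. It was not called (log2 fold change -0.17, 95% interval -0.48 to 0.14), and its level in RPE replicates 1 and 4 was close to that of replicate 2. Without RPE replicates 2 and 3 its log2 fold change was -0.34. Abca4, the flippase that clears retinal from discs, had 1031, 1082, 1460 and 1040 CPM in RPE and 1523 to 1634 in retina. It was below the fold minimum (-0.45, and -0.64 without RPE replicates 2 and 3, where it was called). Rgs9, which ends the transducin signal, was lower (-1.52) but kept 186 and 196 CPM in replicates 1 and 4, against 618 to 783 in retina. Thrb, the thyroid hormone receptor of cones, had 50.4 to 63.3 CPM in RPE and 73.8 to 86.0 in retina (-0.57, under the fold minimum). Cdhr1, a cadherin of nascent discs, had 372 and 386 CPM in RPE replicates 1 and 4 and 982 to 1087 CPM in retina. In these 2 libraries the median rod gene was at 2.39% and 4.45% of retina.

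The promoter windows of rod genes held TAATCC, the motif read by CRX, or its complement in 7 of 15 cases (46.7%), against 6.11% of all windows and 8.96% of windows of genes at least 4-fold lower in RPE. CATGTG was in 3 of the 15. TAATCC or its complement was also in 2 of 17 windows of the pigment list (11.8%). It was in 2 of 13 of the visual cycle list (15.4%), with Rpe65 among them, where it is not marked above. Sag, arrestin (94.2, 1194, 1158 and 141 CPM in RPE, 4132 to 4486 in retina), and Gngt1, the transducin gamma subunit (24.2, 314, 335 and 48.3 CPM in RPE, 938 to 1039 in retina), are shown as examples, with TAATCC or its complement in capitals. Their windows lie at chr1:87803430-87803679 and chr6:3993758-3994007 on GRCm38.p6, both on the plus strand.
Sag: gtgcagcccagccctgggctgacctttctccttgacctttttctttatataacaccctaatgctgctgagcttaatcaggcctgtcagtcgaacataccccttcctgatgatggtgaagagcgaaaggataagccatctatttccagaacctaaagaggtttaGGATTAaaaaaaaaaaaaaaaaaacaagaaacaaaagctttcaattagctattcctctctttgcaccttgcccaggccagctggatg
Gngt1: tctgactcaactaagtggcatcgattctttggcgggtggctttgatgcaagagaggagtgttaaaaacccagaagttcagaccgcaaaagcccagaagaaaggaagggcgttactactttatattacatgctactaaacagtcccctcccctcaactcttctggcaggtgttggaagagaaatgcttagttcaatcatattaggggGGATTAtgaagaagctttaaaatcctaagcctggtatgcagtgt
The match began 87 bases before the start site in Sag and 44 in Gngt1.

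Cone and cilium genes ran with the rods, and retinal transcription factors did so less closely. The median gene of the factor list was at 6.27%, 41.2%, 24.7% and 15.1% of retina in RPE replicates 1 to 4. Of 12 cone genes 11 were lower in RPE and 1 was not called (median log2 fold change -2.53, and -4.83 without RPE replicates 2 and 3). Opn1sw, the short-wave opsin, had 6.42, 133, 101 and 7.66 CPM in RPE and 323 to 396 in retina. All 12 genes of the cilium and the matrix between photoreceptors were lower (-2.85 and -5.45), among them Rp1 (-3.66), an axonemal protein. Of 15 retinal transcription factors 14 were lower (median -2.05, and -2.89 without RPE replicates 2 and 3), among them Nrl (-2.53) and Nr2e3 (-2.78), which set rod identity. The exception was Six3, an eye-field gene, at 92.9 to 105 CPM in RPE and 47.7 to 59.8 in retina (0.89). Rax, a factor of progenitors and Müller cells, had another order among the RPE libraries, at 14.3, 61.7, 35.8 and 45.5 CPM.

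Inner retinal genes were also lower, and in a different proportion. Bipolar genes were lower in 12 of 16 cases, amacrine in 10 of 13, ganglion in 10 of 13 and horizontal in 4 of 4. Their medians were -2.09, -2.23, -2.02 and -3.02, and without RPE replicates 2 and 3 they were -3.32, -4.66, -4.27 and -5.98. Replicates 2 and 3 were alike in rod genes, but the median amacrine gene was at 46.9% of retina in replicate 2 and at 25.8% in replicate 3, and the median ganglion gene at 51.6% and 27.2%. Synaptic vesicle genes were lower in 18 of 20 cases with a median of -2.33, and in 19 with a median of -4.30 without RPE replicates 2 and 3. Snap25, the neuronal SNARE protein, had 22.8, 297, 189 and 30.4 CPM in RPE and 894 to 987 in retina, whereas its non-neuronal relative Snap23 was 1.08 higher in RPE. Among syntaxins, the ribbon synapse form Stx3 was lower (-1.84) and Stx4a, which serves epithelial membranes, higher (1.54).

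Several genes listed as markers of inner retinal neurons, again picked after their values were seen, were as high in RPE as in retina, or higher. Slc6a9, the glycine transporter of amacrine cells, had 562, 514, 530 and 554 CPM in RPE and 172 to 205 in retina (log2 fold change 1.54). Opn4, melanopsin, was low in both but had 12.4 to 23.5 CPM in RPE and 2.99 to 4.55 in retina (2.20). Trpm1, the channel of ON bipolar cells and also a melanocyte gene, had 416, 718, 350 and 872 CPM in RPE and 327 to 344 in retina. Its log2 fold change of 0.82 was called with all libraries, but not after leaving out RPE replicate 2 (0.67) or 4 (0.57), any 1 retina library (0.79 to 0.82), or with scaling by library totals (0.56). Grik1, a kainate receptor, had 106 to 149 CPM in RPE and 112 to 125 in retina, and Dab1 had 42.8 to 52.5 and 45.3 to 51.5. Sv2b, a synaptic vesicle protein, had 578 to 791 CPM in RPE and 473 to 511 in retina, below the fold minimum (0.43). In RPE replicates 1 and 4, where these genes stood near or above their retina level, the median amacrine gene was at 2.97% and 3.13% of retina and the median bipolar gene at 7.38% and 10.1%.

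Müller glia markers did not share a direction. Of 13, 6 were higher in RPE, 5 lower and 2 not called, beside 34.1% higher and 32.1% lower over all genes tested. With so few members these counts do not set the list apart from all genes. The median was 0.24, or 0.25 without RPE replicates 2 and 3 and -0.02 with scaling by library totals. Clu (4.22), Apoe (4.02), Rlbp1 (3.68) and Sox9 (3.66), which RPE cells also express, were higher. Slc1a3 (-1.85), Aqp4 (-2.42), Kcnj10 (-2.19), Abca8a (-2.51) and Car2, which serve glutamate, water, potassium, lipid and bicarbonate transport, were lower. Without RPE replicates 2 and 3, Slc1a3 was at -1.94, Aqp4 at -2.84, Kcnj10 at -3.38 and Abca8a at -3.34. Glul, glutamine synthetase, had 2067 to 2591 CPM in RPE and 1842 to 1976 in retina and was not called (0.24).

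Genes listed for cells outside the RPE were also higher in the RPE libraries. All 9 skeletal muscle genes were higher in RPE (median log2 fold change 9.40), and their summed level was 2432, 1675, 1440 and 1222 CPM, against 4.70 to 8.99 in retina. All 6 genes of the corneal and conjunctival epithelium were higher (9.69), at 5284, 1853, 672 and 1825 CPM summed, although the protocol removed the front of the eye. Krt12, the keratin of the cornea, had 287, 84.7, 8.43 and 95.4 CPM in RPE and 0.0661 to 0.404 in retina. The 10 largest fold changes included the keratins Krt75, Krt13 and Krt17, the myosin chains Myh4 and Myh1 and the water channel Aqp3. Krt75 and Tmprss11b had no count in any retina library and were at least 748-fold and 619-fold higher in RPE, against a floor of 3 counts over the 4 retina libraries. Adh6a had 1 retina count in all and a ratio of 2610 (95% Poisson counting interval 469 to 103000), and Krt17, Cyp4a12b and BC100530 had 1, 1 and 2 counts and ratios of 2410, 2390 and 1870, which cover counting error only with lower bounds of 432, 430 and 516.

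Connective tissue and vessel genes were higher in RPE, with exceptions. Of 13 fibroblast and sclera genes tested 11 were higher and Col2a1 was lower (median 6.03), and their summed level was 816 to 2556 CPM, highest in replicate 1. Of 16 endothelial genes 13 were higher (2.27). Plvap, the marker of fenestrated vessels such as the choriocapillaris, had 78.1 to 132 CPM in RPE and 2.54 to 4.08 in retina. Kdr, the VEGF receptor, was lower in RPE (-1.14), as was the pericyte gene Abcc9 (-0.64). Of 10 mural genes 8 were higher. All 7 red cell genes were higher, with Hba-a1 at 831 to 1516 CPM in RPE and 24.1 to 60.1 in retina. All 14 genes of plasma proteins were higher, with Alb, albumin, at up to 216 CPM in RPE, whereas Trf, transferrin, which the RPE itself makes, had 993 to 1778 CPM.

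Among microglia and macrophage genes 1 stood far above the others. Csf1r, the macrophage growth factor receptor, had 603, 361, 581 and 571 CPM in RPE and 10.6 to 11.4 in retina. The next highest microglia and macrophage marker, Lyz2, reached 40.5 CPM, with Aif1 at 0.755 to 1.52, Cx3cr1 at 2.66 to 4.36 and P2ry12 at 0.525 to 1.17 CPM in RPE. Of the 16, 14 were higher in RPE, P2ry12 was lower and Cx3cr1 was not called. Sox10, a factor of Schwann cells and neural crest melanocytes, had 176, 127, 161 and 163 CPM in RPE and at most 0.373 in retina. Of the 10 Schwann cell genes 7 had enough counts to be tested and 6 were higher in RPE, with Pmp22 at 181 to 259 CPM and Mbp at 59.9 to 510 CPM there. Lens genes behaved in 2 ways. Cryaa had 0, 229, 6.23 and 550 CPM in RPE and 0.0598 to 32.5 in retina and was not called, whereas Lim2 (10.8 to 15.8 CPM), Crygn (7.04 to 12.9) and Cryab (280 to 514) were present in all 4 RPE libraries and were called higher by 8.26, 6.35 and 3.77.

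Other genes had nearly equal levels. In 3554 genes the 95% interval of the difference lay within 1.5-fold of equal. The narrowest among genes of at least 100 CPM were Cct2, a chaperonin subunit with 111 to 118 CPM in RPE and 116 in each retina library, and U2af2, a splicing factor with 117 to 121 and 114 to 120 CPM. Zfp740, Ubp1 and Emc7 came next. Early response and heat shock genes, which mark handling stress, were 4 higher, 4 lower and 10 not called of 18. Klf4 and Klf2 were higher in RPE (4.32 and 3.42), and Btg2 and Fos lower (-1.96 and -1.91).

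The count of very large differences toward the retina depended on RPE replicates 2 and 3. Among genes of at least 10 CPM in the higher tissue, 671 were at least 16-fold higher in RPE and 4 at least 16-fold lower with all 8 libraries. Without RPE replicates 2 and 3 these counts were 771 and 698. With all 8 libraries the genes lowest in RPE were Zfp804b (-4.43), the noncoding Gm33843 (-4.31) and Gm19667 (-4.19), and Slc5a7, the choline transporter of starburst amacrine cells, was at -3.87. Without RPE replicates 2 and 3, Zfp804b was at -6.85 and Slc5a7 also at -6.85. By level per length, Ttr, Ptgds, Cst3, Rgr and Apoe with 5 mitochondrial genes led RPE, and Gnat1 (3690 CPM per kb) was among the 10 leaders of retina. Ptgds, a prostaglandin synthase and carrier, had 15704 to 25798 CPM in RPE and 23.7 to 67.0 in retina.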

How the data were processed

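Total RNA of WT RPE and WT retina at P30 was sequenced from Illumina TruSeq libraries, 4 per tissue. The authors deposited whole-number counts per gene in 1 table per tissue. The submitters' processing notes name mm10, bcl2fastq, FastQC, HOMER and edgeR 3.20.9. For aligner, annotation and strand the sources used here give nothing, and antisense partners cannot be told apart. The 2 tables were joined by gene identifier, since both hold raw counts. Symbols, positions and exon lengths came from GENCODE M21 on GRCm38, and 95 of 53801 identifiers had no symbol. Counts were filtered with filterByExpr, scaled by TMM and fitted with edgeR 4.0.16 (quasi-likelihood, R 4.3.3) in 1 model of the 8 libraries, with Benjamini-Hochberg adjustment over 20009 genes. The model took 1 estimate of variation per gene for both tissues, although RPE libraries varied more than retina libraries. Its p-values and intervals do not reflect that inequality. limma 3.58.1 and DESeq2 1.42.0 gave alternatives. On simulated data of 19748 genes, with 99 changed 2-fold and 98 changed 4-fold, the fit recovered 46.5% of the 2-fold and 85.7% of the 4-fold changes. The simulation gave both tissues the same variation per gene. In the real data 66.2% of genes were DEGs, and the biological coefficient of variation was 0.366 in RPE and 0.0805 in retina. These recovery rates therefore need not hold for the real comparison. No pair of libraries agreed within sampling noise.

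Members and gene lists were chosen with earlier results of these data known. Named genes were, by a rule, the 10 with the largest fold change in each direction, the 10 highest per kb in each tissue, the extremes, the highest and the opposite members of each of 36 lists, members of paralog families, Adipor1, Adipor2 and ceramidases, and the 5 most variable and the 5 most equal genes. Other list members were named as examples after their values were seen. Promoter windows were read from RefSeq. Some genes are not reported here. Single-cell files and the libraries of AdipoR1-/- mice were not used, except that an alternative fitted all 16 bulk libraries.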

Additional observations from a re-analysis of the deposited data

Results flagged for a closer look

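In 21 of 238 groups of 4 libraries, 1 library lay apart by Dixon's criterion for its gap to the nearest library as a share of the group's range. Chance gives this in about 5% of independent groups of normal values. The groups here share libraries and genes, and their genes were chosen with earlier results known. Their count therefore cannot be judged against that rate. RPE replicate 2 was the lowest library for the summed visual cycle genes (gap 0.931 of the range), the summed transport genes (0.859), Rgr (0.89), Otx2 (0.949), Car12 (0.938), Mertk (0.946) and Csf1r (0.865). RPE replicate 3 was the highest for Abca4 (0.882) and Slc24a1 (0.859), and RPE replicate 4 for the summed melanin genes (0.849).

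In retina, replicate 2 was the highest for the summed photoreceptor genes of the visual cycle (0.894), pericyte genes (0.928) and early response genes (0.865). Replicate 3 was the highest for the summed corneal genes (0.861) and Aqp3 (1.0) and the lowest for Degs1 (0.887). Replicate 1 was the lowest for Pax6 (0.8292), Vegfa (0.841) and Ptgds (0.841) and the highest for Slc24a1 (0.846), and replicate 4 was the highest for Cryaa (0.836).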

How the results depend on the processing

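Counts of DEGs stayed within 1.5 times of 13244 under every alternative run. Without WT RPE replicates 2 and 3, an alternative chosen after seeing the data, genes at least 4-fold lower in RPE numbered 3386 in place of 2121, and those at least 16-fold lower 698 in place of 4. With glmTreat against a fold change of 4, 2582 genes were called, 2336 higher and 246 lower. Scaling by library totals gave 5763 DEGs higher and 7865 lower, and 2744 and 2679 at least 4-fold, and upper quartile scaling gave 6334 and 7098, and 2962 and 2392. Leaving out 1 library gave 13124 to 13760 DEGs (6797 to 7019 higher, 6271 to 6899 lower) and 4660 to 6060 genes at least 4-fold (3025 to 3376 higher, 1635 to 2836 lower). The median of the Müller glia list became -0.0205 with library totals, and that of the early response list -0.344 without WT RPE replicate 1, 0.0807 without WT RPE replicate 3 and 0.168 without RPE replicates 2 and 3. The causes were not tested. Of 588 genes followed, 45 lost their call under at least 1 alternative, 39 of them when 1 library was left out, and 0 reversed.

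The labels share only replicate numbers between tissues. Deviations of same-numbered libraries correlated at 0.0831, 0.161, 0.137 and 0.212, and the pairing rule, every correlation over 0.1, was not met. All 4 RPE libraries correlated best with their own number, and of the retina libraries only replicate 1 did not (0.0949 with RPE replicate 3). Ddx3y also separated the same numbers in both tissues, but the labels do not say that a number marks 1 mouse. With the replicate block, 13185 genes were DEGs (6742 higher, 6443 lower) and 5500 at least 4-fold (3105 higher, 2395 lower).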

Other observations

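Some genes differed among RPE libraries in an order other than that of rod RNA. The summed lens genes had 383 CPM in RPE replicate 1, 1152 in replicate 2, 351 in replicate 3 and 1894 in replicate 4, against 25.5 to 111 CPM in retina. Mlana, with 246 CPM in replicate 4, and Rax, with 45.5 CPM there, were higher in replicates 2 and 4 than in replicate 1. These genes were picked after their values were seen.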
